A study of Homo sapiens with 5 samples.

Results

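The SRC family kinases are the cytoplasmic tyrosine kinases that sit at the inner face of the plasma membrane and pass on signals from receptors and integrins. Expression of SRC, YES1, FYN, LYN, LCK, FGR, PTK6 and FRK was compared between gefitinib-resistant HCC827/GR cells and parental HCC827 cells. CSK, an inhibitor of SRC kinases, was compared as well. The 9 genes were chosen by name, as the rows of the expression table that carry their symbols. Each symbol had 1 entry, so they make up 9 of the 37181 entries of the table. HCC827 is a human lung adenocarcinoma line, and all 5 libraries came from cells with a deletion in exon 19 of EGFR. The 3 HCC827/GR libraries (replicates 1, 2 and 3) were of a line derived from the parental cells under rising doses of gefitinib, an EGFR tyrosine kinase inhibitor, over more than 6 months. The 2 parental libraries (replicates 2 and 3) were of gefitinib-sensitive cells. No other agent or allele is given by the labels. The comparison is therefore of 1 resistant line with its parental line, and the labels do not say whether the replicates were separate cultures, so the p-values measure the spread between these libraries, which may be technical.

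Most SRC kinases are tethered to the membrane by lipids on their amino terminus and carry SH3, SH2 and kinase domains. CSK phosphorylates a tyrosine near the end of the carboxyl-terminal tail, and the phosphorylated tail folds back onto the SH2 domain and holds the kinase inactive. Phosphatases remove that phosphate, and binding of receptors or adaptors opens the molecule. SRC and YES1 are expressed in most tissues, FYN and LYN in many tissues and in blood cells, and LCK and FGR mainly in lymphoid and myeloid cells. PTK6 and FRK form a related branch that is found chiefly in epithelia. In lung adenocarcinoma cells, SRC kinases act downstream of EGFR and MET and upstream of focal adhesion proteins.

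The last 10 codons and the stop codon of 8 of the genes are printed to show the carboxyl-terminal tail. Whether CSK acts on each of these tails was not tested. The sequences are on the coding strand of GRCh38, from GENCODE 29, and capitals mark the last tyrosine codon of the reading frame.
SRC (chr20:37403347-37403379, plus strand): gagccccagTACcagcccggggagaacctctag
YES1 (chr18:724424-724456, minus strand): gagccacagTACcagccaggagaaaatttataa
FYN (chr6:111661739-111661771, minus strand): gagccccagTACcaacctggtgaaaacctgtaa
FGR (chr1:27612914-27612946, minus strand): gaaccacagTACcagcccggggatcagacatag
LCK (chr1:32285684-32285716, plus strand): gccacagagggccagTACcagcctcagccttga
PTK6 (chr20:63529536-63529568, minus strand): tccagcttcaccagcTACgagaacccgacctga
FRK (chr6:115942414-115942446, minus strand): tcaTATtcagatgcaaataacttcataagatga
CSK (chr15:74802481-74802513, plus strand): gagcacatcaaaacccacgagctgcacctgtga

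SRC, YES1, FYN and FGR had 6 codons between that tyrosine codon and the stop codon, LCK and PTK6 had 4, and FRK had 8. CSK, which is the enzyme and not a substrate of this kind, had no tyrosine codon in the stretch shown. Although the kinases are related, no pair among the 36 pairs of the 9 genes shared a stretch of 50 identical bases in their annotated transcripts.

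Of the 9 genes, 7 passed the filter of a mean of 0.5 FPKM over the 5 libraries and were tested. FPKM is scaled to transcript length and to the mapped fragments of the library, so levels can be compared between genes within a library. FYN was higher in HCC827/GR cells and FRK was lower. The other 5 genes tested, which were SRC, YES1, LYN, PTK6 and CSK, did not pass the threshold, and LCK and FGR lay below the filter. A call was an adjusted p under 0.05 in limma, which was fitted on log2(FPKM + 1) over all 16189 entries that passed the filter. The count of 1 of 7 members called higher stands beside 5.26% of all entries tested, and 1 of 7 called lower stands beside 5.71%. With the fold and p limits of the study, an at least 2-fold change and an unadjusted p under 0.05, applied here to the limma p and to the fold on the log2(FPKM + 1) scale, FYN and FRK were the members past them, where 2.96% of all entries were higher and 3.97% lower. On the ratio of mean FPKM with the same p, PTK6 would pass as well, and with the p of a linear model per entry of the kind Ballgown fits, FRK would not. All HCC827/GR values were above all HCC827 values for 2 of the 7 members tested, against 22.8% of all entries, and below them for 5 of the 7, against 23.4%.

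**Figure D1:**
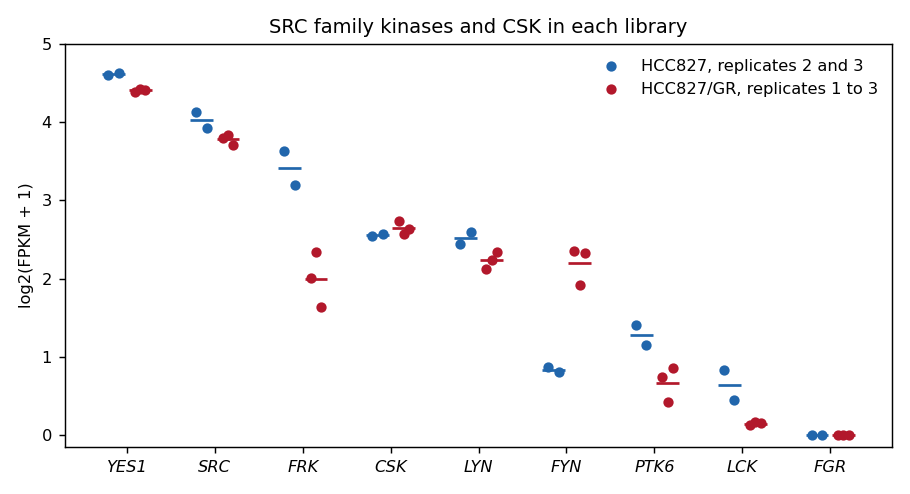
Levels of the 9 genes on the log2(FPKM + 1) axis, with 1 point per library and a short line at the mean of each group. The FYN points of HCC827/GR cells lie above those of HCC827 cells, the FRK points lie below them, and SRC and YES1 were high in all 5 libraries.

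YES1 and SRC, the broadly expressed members, had the highest levels in both lines. YES1 (GRCh38 chr18:721588-812546, minus strand) was measured at 19.8, 20.5 and 20.3 FPKM in HCC827/GR replicates 1, 2 and 3 and at 23.3 and 23.8 FPKM in HCC827 replicates 2 and 3. The ranges did not overlap, yet the gap was small, with means of 20.2 ± 0.333 (SD, n = 3) and 23.6 ± 0.375 (SD, n = 2). The difference on the log2(FPKM + 1) scale was -0.21 (SE 0.081), with an adjusted p of 0.184 in limma. Its locus also holds antisense genes on the other strand, and the strand setting of the counting is not given in the sources used here. The processed pseudogene YES1P1 shares 101 of the 5138 stretches of 50 bases in YES1 transcripts, and its own entry amounted to 0.366 to 1.40% of the YES1 level.

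SRC (chr20:37344685-37406050, plus strand), the founding member of the family, was at 12.9, 13.3 and 12.0 FPKM in HCC827/GR cells and at 16.5 and 14.1 FPKM in HCC827 cells. All 3 resistant values were below both parental values. The difference was -0.24 (SE 0.11), its 95% interval ran from -0.52 to 0.04, and the adjusted p was 0.240. LYN (chr8:55879813-56014168, plus strand), which also serves B cells and myeloid cells, was at 3.35, 3.74 and 4.05 FPKM in the resistant line and at 4.46 and 5.06 FPKM in the parental line. Again the resistant values were the lower ones, and the difference of -0.29 (SE 0.112) had an adjusted p of 0.186. For these 3 genes, the 95% intervals of the difference reached no further than -0.58, so a difference of -1 on this scale lay outside them.

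FYN showed the opposite course. FYN (chr6:111660332-111873452, minus strand), a kinase of focal adhesions and of T-cell receptor signalling, was at 4.09, 2.79 and 4.04 FPKM in HCC827/GR replicates 1, 2 and 3. In HCC827 replicates 2 and 3 it was at 0.822 and 0.745 FPKM. The lowest resistant value, in replicate 2, was still more than 3-fold the highest parental one. The means were 3.64 ± 0.739 (SD, n = 3) and 0.783 ± 0.0548 (SD, n = 2), a ratio of 4.65. On the log2(FPKM + 1) scale, which understates changes at low levels, the difference was 1.37 (SE 0.168, 95% interval 0.93 to 1.80), with an adjusted p of 0.0147 in limma. By absolute size of the difference, FYN was number 641 of the 16189 entries. The call was lost when HCC827/GR replicate 1 or 3 or HCC827 replicate 2 or 3 was left out, with adjusted p from 0.0513 to 0.0908, and held without HCC827/GR replicate 2 (adjusted p = 0.0258), and the difference was 1.29 to 1.51 in these fits. With the Ballgown-type model the adjusted p was 0.265.

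LCK, FYN's close relative in T cells, was low in all libraries. Its values (chr1:32251239-32286165, plus strand) were 0.0973, 0.119 and 0.110 FPKM in HCC827/GR cells and 0.783 and 0.361 FPKM in HCC827 cells. The groups did not overlap, but the mean over all 5 libraries was under the filter and LCK was not tested. An exact two-sided permutation test of its values gave p = 0.1, which is the smallest p that 3 against 2 libraries can give. FGR (chr1:27612064-27635277, minus strand), a kinase of myeloid cells, was listed at 0 in 3 of the 5 libraries and at no more than 0.00531 FPKM in the others.

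FRK and PTK6, the epithelial branch, were both at lower values in the resistant line. FRK (chr6:115931149-116060758, minus strand) was at 3.03, 4.08 and 2.13 FPKM in HCC827/GR cells and at 11.4 and 8.18 FPKM in HCC827 cells. The highest resistant value was about 0.5 of the lowest parental one. The means were 3.08 ± 0.979 (SD, n = 3) and 9.77 ± 2.25 (SD, n = 2), so the parental level was 3.17-fold the resistant one. The difference was -1.41 (SE 0.255, 95% interval -2.08 to -0.75), with an adjusted p of 0.0362 in limma. The call was lost when any of the 5 libraries was left out: the adjusted p was 0.110 without HCC827/GR replicate 1, 0.0530 without replicate 2 and 0.0693 without replicate 3, and 0.167 and 0.101 without HCC827 replicates 2 and 3, while the difference stayed between -1.63 and -1.20. With no filter on low values the adjusted p was 0.0846, and with the Ballgown-type model it was 0.370. The entry of FRK overlaps TPI1P3, a processed pseudogene in an intron on the other strand.

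PTK6 (chr20:63528001-63537370, minus strand), also known as BRK, a kinase of differentiating epithelial cells, was at 0.671, 0.339 and 0.811 FPKM in the resistant cells. The parental values were 1.65 and 1.22 FPKM. Both parental values were above all 3 resistant ones, and the ratio of the means was 2.37. The difference was -0.61 (SE 0.188, 95% interval -1.10 to -0.12), and with an unadjusted p of 0.0248 and an adjusted p of 0.123 in limma it did not pass the threshold. At this low level the pseudocount weighs on the size: the difference was -1.17 with a pseudocount of 0.1 (adjusted p = 0.156).

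CSK, an inhibitor of SRC kinases, had near-equal levels in the lines. CSK (chr15:74782057-74803198, plus strand) was at 5.66, 4.96 and 5.19 FPKM in HCC827/GR cells and at 4.85 and 4.94 FPKM in HCC827 cells. The lowest resistant value was just above the highest parental value. The difference was 0.09 (SE 0.094) with an adjusted p of 0.610, and its 95% interval of -0.16 to 0.33 leaves out a difference of 1 in either direction.

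**Figure D2:**
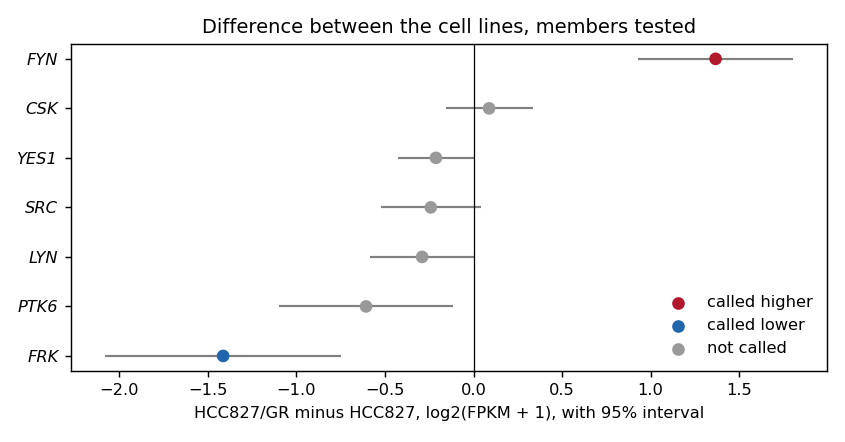
Difference between HCC827/GR and HCC827 cells in log2(FPKM + 1) for the 7 members tested, with bars for the 95% interval from limma. FYN lies at 1.37 and FRK at -1.41, and the other 5 members lie between -0.61 and 0.09.

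The order of the kinases by level changed below the top 2 places. In HCC827 cells the order by mean FPKM was YES1, SRC, FRK, CSK, LYN, PTK6, FYN, LCK and FGR. The ranges of CSK and LYN overlapped, as did those of FYN and LCK. In HCC827/GR cells the order was YES1, SRC, CSK, LYN, FYN, FRK, PTK6, LCK and FGR, with overlap between LYN and FYN and between FYN and FRK. FRK thus moved from place 3 to place 6 and FYN from place 7 to place 5. The ratio of FRK to FYN was 13.8 and 11.0 in the parental libraries and 0.740, 1.46 and 0.525 in the resistant libraries.

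The summed level of the 8 kinases without CSK was 44.0, 44.9 and 43.5 FPKM in HCC827/GR replicates 1, 2 and 3, and 58.9 and 53.5 FPKM in HCC827 replicates 2 and 3. The mean difference was -12.1 FPKM. FRK contributed -6.69 FPKM, YES1 -3.36, SRC -2.53 and LYN -1.05, while FYN went the other way with 2.86 FPKM. Since CSK was near level, the kinases per unit of CSK were 8.40 ± 0.639 (SD, n = 3) in the resistant line and 11.5 ± 0.905 (SD, n = 2) in the parental line, without overlap. These sums describe mRNA and carry no adjusted test, and 3 against 2 libraries cannot give an exact permutation p below 0.1.

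As a share of the sum, FYN took 8.27% ± 1.78 (SD, n = 3) in HCC827/GR cells and 1.39% ± 0.00443 (SD, n = 2) in HCC827 cells. FRK took 6.95% ± 2.10 and 17.3% ± 2.84. PTK6 took 1.38% and 2.54%. The shares of SRC, 28.9% and 27.2%, and of LYN, 8.42% and 8.51%, overlapped between the lines. YES1 and SRC together made up 74.7% ± 0.531 of the sum in the resistant line and 69.3% ± 2.37 in the parental line.

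**Figure D3:**
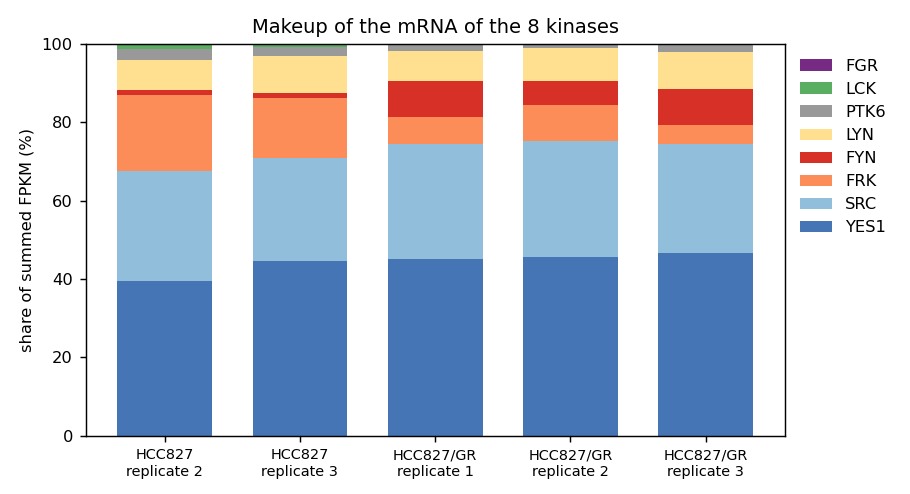
Share of each kinase in the summed FPKM of the 8 kinases (percent, stacked to 100), with 1 bar per library. YES1 and SRC fill most of every bar, the FRK segment is wider in the HCC827 bars and the FYN segment is wider in the HCC827/GR bars.

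The outermost listed start of FYN and the listed start of FRK differ in sequence make-up. Both promoters are printed because these are the members that were called, with CpG dinucleotides in capitals. They are RefSeq windows on GRCh38.p14 of 250 bases before and 50 bases after an annotated start. RefSeq windows were at hand for 6 of the 9 members. The FYN window is the outermost of 4 for that gene.
FYN (chr6:111873403-111873702, minus strand): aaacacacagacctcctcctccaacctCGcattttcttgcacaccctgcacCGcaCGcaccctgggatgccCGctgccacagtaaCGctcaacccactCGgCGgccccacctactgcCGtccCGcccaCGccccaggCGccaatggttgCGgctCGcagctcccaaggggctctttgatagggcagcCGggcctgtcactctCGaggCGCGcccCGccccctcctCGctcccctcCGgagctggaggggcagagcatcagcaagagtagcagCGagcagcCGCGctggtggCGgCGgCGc
FRK (chr6:116060842-116061141, minus strand): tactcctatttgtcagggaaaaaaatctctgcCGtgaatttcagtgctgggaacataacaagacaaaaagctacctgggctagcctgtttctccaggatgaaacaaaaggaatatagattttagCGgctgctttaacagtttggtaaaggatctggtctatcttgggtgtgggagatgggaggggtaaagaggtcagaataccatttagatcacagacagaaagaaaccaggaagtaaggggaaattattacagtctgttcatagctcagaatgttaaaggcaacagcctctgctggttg

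The FYN window held 26 CpG dinucleotides at 69.0% GC, and the FRK window held 2 at 42.3% GC. The median of all 35116 windows was 14, with quartiles of 4 and 28. Both strands were searched for GGGCGG (the GC box, in 45.0% of all windows), CAGGTG (an E-box, in 20.6%) and TATAAA (in 11.5%). GGGCGG was found in the FYN window, and none of the 3 was found in the FRK window. Windows further downstream held 55, 8 and 2 CpG for FYN. YES1, a high member, had 39 CpG, CSK had 4, LCK had 10 and 4, and FGR had 18 and 4. The libraries hold no measure of methylation or of factor binding, and which start was in use was not tested.

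FYN and FRK lie on the long arm of chromosome 6, and the lower coordinates of their annotated spans are 4270.82 kb apart. Each is among the 5 nearest tested protein-coding genes on 1 side of the other, and they changed in opposite directions. The 10 tested neighbours of FYN had a median difference of 0.01, and FRK was the called one. Around FRK the median was 0.34, and FYN was the called one. The neighbours of YES1, 9 in all, held no call and had a median of -0.23, with values from -0.39 to 0.27. Of all entries tested, 5.26% were called higher and 5.71% lower. Over the 83 different neighbours of the 9 genes that are not members, 2 were called higher, 3 were called lower and the median was 0.06. The 5 were SOGA1 (0.92) and TLDC2 (-1.09) near SRC, ARFGAP1 (0.76) and an entry with the symbol TNFRSF6B and transcripts of RTEL1 (-0.60) near PTK6, and CYP1A1 (-0.97) near CSK. They were named after their values were seen.

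**Figure D4:**
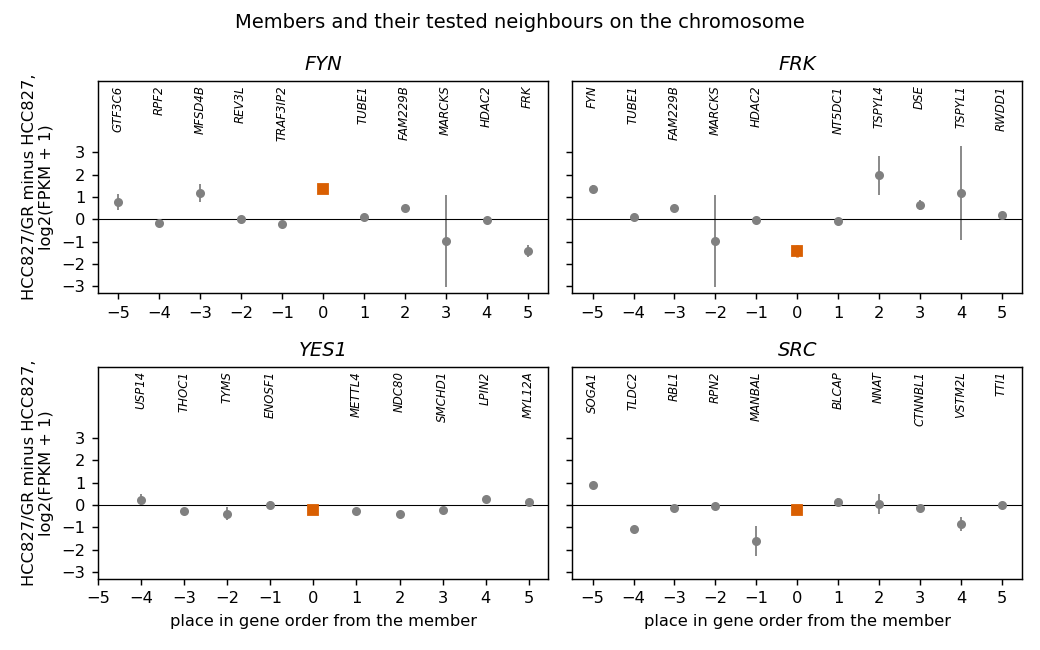
Difference between HCC827/GR and HCC827 cells in log2(FPKM + 1), with bars for the SE, for FYN, FRK, YES1 and SRC (orange squares at place 0) and for their tested neighbours (grey) in gene order. FYN and FRK stand on opposite sides of 0 in the upper panels.

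Entries whose 5 values followed a member most closely were sought over all entries tested, as the smallest root mean square difference between the centred log2(FPKM + 1) values over the 5 libraries. For FRK the 3 closest were NUP62CL (0.0915), SH3BGRL2 (0.107) and AC008655.1 (0.124). NUP62CL was at 0.874, 1.16 and 0.516 FPKM in HCC827/GR cells and at 4.04 and 2.95 FPKM in HCC827 cells. Within both lines it ranked the libraries as FRK did, an order that its choice for likeness to FRK favours. The same measure for FYN, added after the values were seen, gave ARHGAP31 (0.0259), SRCIN1 (0.0659) and ZNF283 (0.0767). SRCIN1 encodes an inhibitor of SRC signalling, and it was at 2.41, 1.49 and 1.99 FPKM in the resistant cells and at 0.160 and 0.0575 FPKM in the parental cells. Being chosen for likeness to FYN fixes that direction.

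Receptors that recruit SRC kinases held the largest differences among the genes around the family. Of 23 receptors listed, 20 had an entry and 17 were tested, and 2 were called higher, 3 lower and 12 not called, with a median difference of -0.02. EGFR, the target of gefitinib, averaged 5.70 ± 2.15 FPKM (SD, n = 3) in the resistant line against 63.6 ± 10.2 FPKM (SD, n = 2) in the parental line, a difference of -3.31 (adjusted p = 0.00926 in limma). FGFR1, a fibroblast growth factor receptor, was higher by 2.81 (adjusted p = 0.00661), with means of 14.9 and 1.26 FPKM. IGF1R, the insulin-like growth factor 1 receptor, was higher by 1.17, and the collagen receptor DDR1 and the TAM receptor MERTK had differences of -1.01 and -0.75. MET (-0.60, adjusted p = 0.0621) and AXL (0.88, adjusted p = 0.0685) missed the threshold, although their groups did not overlap. MERTK is named because all the called genes of these lists are given, also those under 1 on the log2 scale.

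Regulators that add to or act beside CSK were called at a share of 11.1%, near the 10.96% of all entries tested. Of 23 listed, 22 had an entry and 18 were tested, with 0 called higher and 2 lower in limma and a median of -0.09. At an unadjusted p under 0.05, 1 was higher and 5 were lower, and the Ballgown-type model called 0 genes of any of these lists. CBLC, an epithelial ubiquitin ligase that binds SRC and EGFR, had means of 0.768 ± 0.203 and 4.62 ± 0.851 FPKM in the resistant and parental lines, a difference of -1.67 (adjusted p = 0.0100). The phosphatase PTPN6 had a difference of -0.61 (adjusted p = 0.0312). PAG1, the membrane anchor of CSK, had -0.61 (adjusted p = 0.175). The phosphatases PTPN1 and PTPRA, which can remove the tail phosphate, had -0.12 and 0.28 and were not called. The phosphatases PTPN11 (-0.75, adjusted p = 0.154) and PTPRJ (-0.53, adjusted p = 0.167) were not called either, although their resistant values were all below their parental values, and the ubiquitin ligase CBLB (0.64, adjusted p = 0.257) overlapped. These 3 were named after their values were seen. Among 12 genes for folding and lipid anchoring, all tested, NMT2 was called higher by 1.16 (adjusted p = 0.0157) and 0 were called lower in limma (1 at an unadjusted p under 0.05), with a median of 0.13. NMT2, an N-myristoyltransferase that attaches the fatty acid to the amino terminus, was at 5.51 ± 0.791 FPKM in the resistant line and 1.90 ± 0.287 FPKM in the parental line. NMT1, the other enzyme of this reaction, was at 28.9 and 27.0 FPKM, a difference of 0.07 (adjusted p = 0.877), and was named after its values were seen.

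Adaptors and substrates of SRC kinases numbered 32, of which 31 had an entry and 30 were tested. Of these, 2 were called higher, 4 were called lower and 24 were not called, with a median of 0.06. PTK2B, the focal adhesion kinase PYK2, was lower by the largest margin, at 0.610 ± 0.0511 and 2.98 ± 0.174 FPKM in the resistant and parental lines, a difference of -1.30 (adjusted p = 0.00628). Its relative PTK2, which is FAK, differed by -0.06. CAV1, a caveolar coat protein and substrate of SRC, had means of 103 and 205 FPKM, a difference of -0.97 (adjusted p = 0.0489). The focal adhesion scaffold PXN had -0.66 (adjusted p = 0.0407) and EPS8, an EGFR pathway substrate, had -0.79. The LIM domain proteins TRIP6 and LPXN were higher by 0.97 and 0.79. BCAR1 (0.20), CTTN (0.35) and CDCP1 (-0.69), which are substrates bound or phosphorylated by SRC, were not called.

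Over the 4 lists, 5 genes were called higher and 9 lower. These counts were 1 to 4 and 1 to 4 when each of the 5 libraries was left out in turn, lowest without HCC827/GR replicate 1 for the higher genes and without HCC827 replicate 2 for the lower ones. Without HCC827/GR replicate 3 the counts were 4 and 4. The medians of the receptors and of the adaptors changed sign between these fits, so no direction is given for the lists as a whole. Over all entries tested, 10.96% were called in either direction and the median was 0.00.

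**Figure D5:**
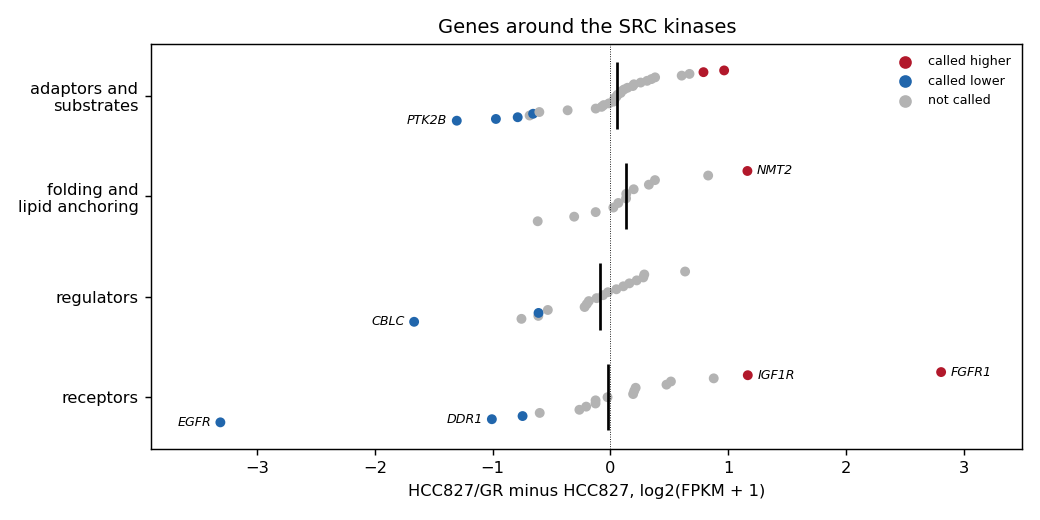
Difference between HCC827/GR and HCC827 cells in log2(FPKM + 1) for each tested gene of the 4 lists (points), with a vertical line at the median of the list. All 4 medians lie between -0.09 and 0.13, and EGFR at -3.31 and FGFR1 at 2.81 are the farthest points.

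Kinases related to the family but outside it were few at measurable levels. BLK and SRMS, which are relatives of SRC, were at 0.162 and 0.0512 FPKM at most. Of ABL1, ABL2 and TEC, the 3 relatives tested, 0 were called by limma, 0 had an unadjusted p under 0.05 and the adjusted p was 0.217 to 0.830. All other genes annotated as cytoplasmic tyrosine kinases were added after the values were seen. Of 36 such entries, 24 were tested, and PKDCC (0.62) was called higher and PTK2B (-1.30) and SYK (-1.44) lower, with a median of -0.11. The share called was 12.5%, near the 10.96% of all entries tested.

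Markers of other cells were set beside the members. Epithelial markers moved with FRK: of 10 listed, 8 had an entry, 7 were tested and 6 were called lower, with a median of -1.52 and a summed level of 447 to 578 FPKM in HCC827/GR cells and 1078 to 1197 FPKM in HCC827 cells. EPCAM had a difference of -3.04, CDH1 of -1.93, NKX2-1 of -1.64 and KRT19 of -1.52, and KRT8 was at 127 FPKM or more in every library. MUC1 and KRT18 were the other lower ones. The surfactant gene SFTPB was at most 0.139 FPKM. The part of this shift in the FRK result was not tested. In bulk libraries, fewer cells of a type and less RNA per cell cannot be told apart. Of the 22 blood cell markers, 19 had an entry and 13 of those stayed under 0.5 FPKM in every library. PTPRC, the common leukocyte antigen, was at 0.0228 FPKM at most and TYROBP was listed at 0 throughout. LAT (0.89) and FCER1G (0.53) were called higher, SYK lower and CD68 not. CD79A (means of 0.0763 and 1.06 FPKM) and CSF1R (0.279 and 0.641 FPKM) were under the filter and, like LCK, lower in all 3 resistant libraries than in both parental ones; their part in the LCK values was not tested. In all, the summed level was 57.2 to 62.8 FPKM in the resistant line and 50.2 to 57.4 FPKM in the parental line. Most of it came from CD68, with means of 35.3 and 34.9 FPKM in the resistant and parental lines. FCER1G came next, with means of 18.3 and 12.3 FPKM. The 9 fibroblast markers summed to 2.74 to 3.09 and 3.59 to 3.61 FPKM, and 7 of them were under 0.5 FPKM everywhere, DCN at 0.0259 FPKM at most.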

How the data were processed

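Gene-level FPKM values were deposited for 37181 entries. According to the study's methods and the labels, the authors trimmed reads with Cutadapt, checked them with FastQC, aligned them with Bowtie2 and TopHat2, assembled and merged transcripts with StringTie and computed FPKM with StringTie and Ballgown; tool versions are not given in the sources used here. The submitters' processing notes name hg18, whereas the transcript identifiers match GENCODE 29, from which all coordinates were taken by identifier. The methods describe paired-end libraries depleted of ribosomal RNA and the labels describe a single-end small RNA kit, and the files do not settle which. The deposited FPKM hold no counts, so depth is unknown and no count model was used. The table has 1 other FPKM column that matches no sample and was not used.

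Values were analysed as log2(FPKM + 1) with limma 3.58.1 (R 4.3.3; lmFit, eBayes with a trend) without a block, on the 16189 entries whose mean reached 0.5 FPKM, and p-values were adjusted by Benjamini-Hochberg over all of them. An entry with an adjusted p under 0.05 was called. Where a symbol has several entries, the one with the highest mean was used. Fits were tested on simulated data. All members were named, along with a set of regulators and substrates and the called list genes with a difference of at least 1 and no overlap between groups. An item the naming rule also covers is not reported here. The other called genes of the lists are named because their count is small. Members and lists were chosen with earlier results of these data known, so list counts are descriptions. A permutation test over 3 against 2 libraries cannot give a p below 0.1. Alternatives tried were a smaller pseudocount (0.1), a filter of 1 FPKM or none, median-ratio scaling, quantile normalization, no trend, a linear model per entry as in Ballgown, a replicate block, summed entries and each library left out. Annotation, promoter windows and motif searches used Python 3.11.15 on RefSeq and GENCODE tables.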

Additional observations from a re-analysis of the deposited data

How the results depend on the processing

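None of the 7 members tested reversed its direction under the alternatives run. SRC, YES1, LYN and CSK passed the threshold in none of the 14 fits with a test. PTK6, which is absent from the fit with a filter of 1 FPKM, passed it in none of the others. LCK and FGR have no alternative here. The Ballgown-type model gave 1.38 for FYN (adjusted p = 0.265) and -1.23 for FRK (0.370), called 6 entries higher and 9 lower, and called 0 members (at an unadjusted p under 0.05, FYN higher and YES1 and LYN lower, but not FRK) and 0 list genes in either direction. With no filter on low values FRK was -1.41 (0.0846), 0 members were called lower, and the lists held 3 higher and 5 lower genes. With a replicate block FYN was 1.29 (0.143) and FRK -1.42 (0.130), and 0 entries, members and list genes were called in either direction, although 3545 entries had an unadjusted p under 0.05 (4410 without the block); in that fit HCC827/GR replicate 1 has no partner. Same-numbered libraries deviated from their group means with correlations of 0.0328 and 0.0147 over entries. The deviations of HCC827 replicates 2 and 3 mirror each other, so these correlations cannot decide whether same-numbered libraries were paired. The log2 ratio of mean FPKM, without a pseudocount, was 2.22 for FYN and -1.24 for PTK6. With each library left out, FYN ranged from 1.29 to 1.51 and FRK from -1.63 to -1.20, members called were 0 to 1 higher and 0 to 0 lower, list genes 1 to 4 higher and 1 to 4 lower, and all entries 202 to 485 higher and 287 to 477 lower; fewer libraries were fitted there, and otherwise the cause was not tested. Unknown depth gives no counting error for LCK or FGR.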
